A study of Sus scrofa with 20 samples.

Results

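The vascular lipases and their partners were examined as 9 named genes in backfat and liver of the Nanchukmacdon pig, a Korean breed derived from the Jeju native pig and Landrace. The genes were LPL, LIPC, LIPG, GPIHBP1, LMF1, ANGPTL4, ANGPTL8, PLTP and LCAT. They were chosen by symbol, and a symbol was used where it was paired with a pig Ensembl identifier of the RNA-seq count table. An identifier was found for 8 of the 9 among 31907 genes, and PLTP, for which none was found, was skipped. RNA-seq was available for backfat and liver of the same 5 boars, numbered 65, 67, 69, 71 and 72, with 1 library per tissue and boar. The labels describe all animals as wild type, of normal state and 22 months old, while the methods of the study state an older average age. No treatment was compared, so the only contrast was tissue, and each library was made from bulk tissue.

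Triglyceride in circulating lipoproteins is hydrolysed at the vessel wall by lipases that are folded in the endoplasmic reticulum of parenchymal cells and then held at the endothelial surface. Lipoprotein lipase (LPL) serves triglyceride uptake in adipose tissue and muscle, hepatic lipase (LIPC) acts in the liver on remnants and high-density lipoprotein (HDL), and endothelial lipase (LIPG) acts mainly on HDL phospholipid. GPIHBP1 carries LPL across the capillary endothelium, LMF1 is needed for lipase maturation, and angiopoietin-like proteins inhibit LPL, while LCAT and PLTP act on HDL in plasma.

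LIPC was the lipase with the highest level in liver, and a short stretch in front of its curated RefSeq start is shown for that reason. It was read from RefSeq Sscrofa11.1 on the minus strand at chr1:113583760-113583789. Capitals mark GTTAAT followed by any 1 base and ATTAA, a form of the binding site of the hepatocyte factor HNF1.
LIPC site: gtttaaaagGTTAATTATTAAtgggcaacc
The motif was picked after the sequence had been seen, and a match describes the letters only. Counted from the start of the curated RefSeq transcript, the match stood at 54 to 43 bases upstream. Among 3956 windows of 250 bases before curated RefSeq starts, searched on both strands, the form was found in 3 (0.0758%), LIPC among them. As the form was picked from this sequence, that share does not measure how unusual the match is. The windows of LPL, LIPG, GPIHBP1, ANGPTL4, PLTP and LCAT did not hold the form. LMF1 and ANGPTL8 had no curated start and were not searched.

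The libraries held 43820042 to 61772737 counted read pairs. Summed adipocyte markers (ADIPOQ, PLIN1, CIDEC, FABP4 and LEP) reached 9099 to 11957 CPM (the read pairs of a gene scaled to the TMM-adjusted size of its library) in backfat and 8.05 to 11.1 in liver, where ADIPOQ or LEP was at 0 in some libraries. Summed hepatocyte markers (ALB, APOB, TTR, SERPINA1, TF and FGB) reached 19023 to 83834 CPM in liver. In backfat they were 2.22 to 3.04 CPM in 4 libraries. The libraries therefore carried the markers of the tissue on their label, but 2 stood apart from the others of their tissue. Backfat of boar 69 had 88.2 CPM of hepatocyte markers. Liver of boar 67 had the lowest hepatocyte sum, 19023 CPM against 68156 to 83834 in the others, 135 CPM of skeletal muscle markers against at most 1.05, and 1822 CPM of red cell markers against at most 383. Backfat held skeletal muscle markers (ACTA1 and CKM) too, from 6.18 CPM in boar 72 to 382 in boar 65. The log2 fold change is given with and without liver 67 for LIPG and GPIHBP1, and with and without backfat 69 for ANGPTL8 and APOC3. Most partner genes are given with all libraries only. Of all 16275 genes tested, 22.3% were called different by edgeR's quasi-likelihood test. A call needed a Benjamini-Hochberg adjusted p no higher than 0.05 together with a log2 fold change of 2 or more, up or down.

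Of the 8 genes with an identifier, 7 passed the filter on low counts and were tested. LPL and ANGPTL8 passed it through 1 tissue only, so counts and medians over the 7 are a description. LPL and GPIHBP1 were called higher in backfat, where 11.1% of all genes were called higher. LIPC and ANGPTL8 were called higher in liver, where 11.2% of all genes were. LIPG, ANGPTL4 and LMF1 were not called, and LCAT had no counts to test. The median log2 fold change of the 7 (backfat minus liver) was -0.53, beside 0.00014 over all genes tested. The libraries of the 2 tissues did not overlap for 5 of the 7 genes, as was the case for 42.6% of all genes tested.

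**Figure D1:**
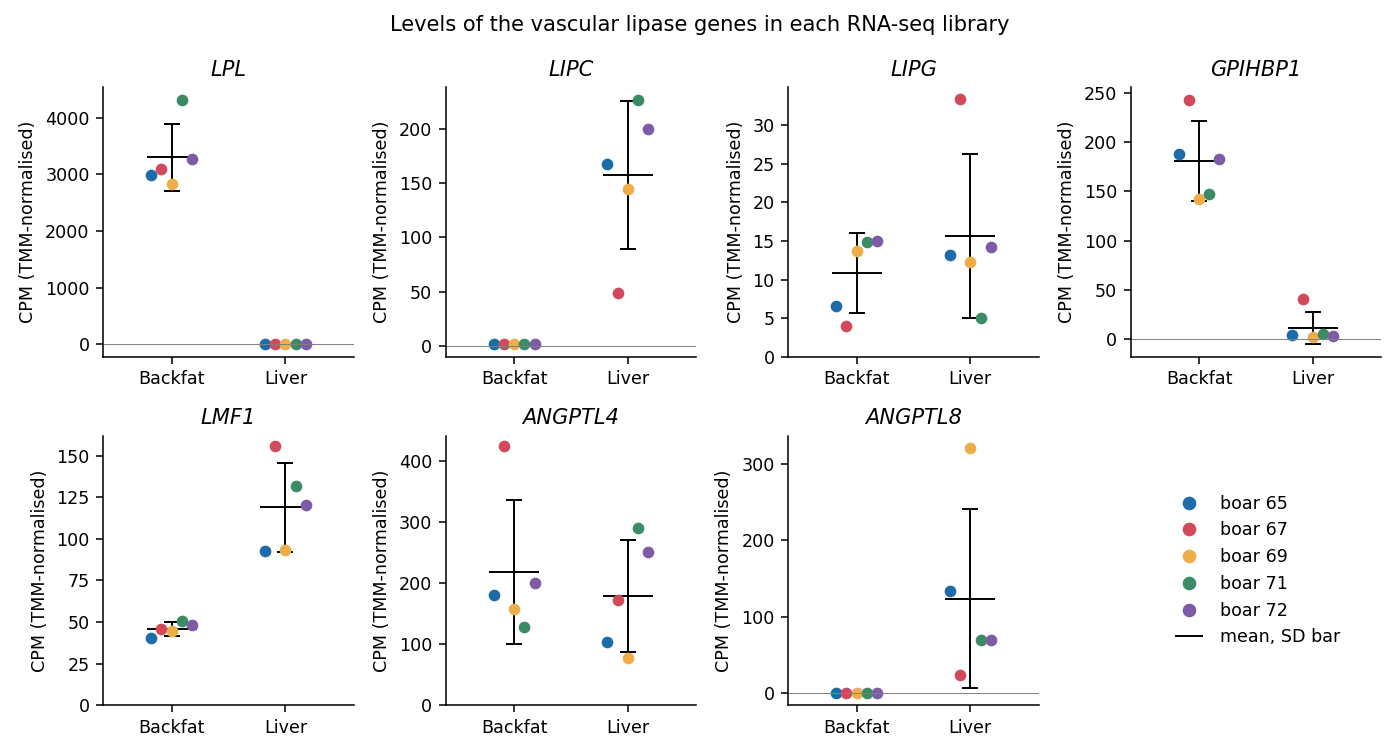
TMM-normalised CPM (linear axis, a scale of its own per gene) of the 7 tested genes in the 5 backfat and 5 liver libraries, with points coloured by boar and the mean and SD in black. LPL and GPIHBP1 lie higher in every backfat library, LIPC, LMF1 and ANGPTL8 lie higher in every liver library, and LIPG and ANGPTL4 overlap.

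LPL (ENSSSCG00000040631), which hydrolyses the triglyceride of chylomicrons and very-low-density lipoprotein, spans chr14:4104761-4134964 on the plus strand with 10 exons. In backfat its level was 2982, 3095, 2829, 4322 and 3268 CPM in boars 65, 67, 69, 71 and 72. In liver the corresponding levels were 0.0997, 0.297, 0.149, 0.411 and 0 CPM, which rest on 4, 11, 7, 13 and 0 read pairs. Every backfat library lay far above every liver library, and boar 71 was highest in both tissues. Mean levels were 3299 ± 594 CPM in backfat and 0.191 ± 0.163 in liver (SD, n = 5), a log2 fold change of 14.09 (SE 0.84, adjusted p = 4.87e-08, edgeR). As in any bulk tissue, fewer cells of a type and less RNA per cell could not be told apart. The adipocyte marker sum moved with LPL between the tissues, and its part in the difference was not tested.

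LIPC (ENSSSCG00000004596), the lipase secreted by hepatocytes, spans chr1:113433684-113604139 on the minus strand. Its curated RefSeq transcript has 9 exons and starts inside that span, at 113583726, so the stretch shown above lies within the gene record. The LIPC level in liver was 168, 48.8, 145, 227 and 200 CPM in boars 65, 67, 69, 71 and 72. In backfat it was 1.21, 1.98, 1.43, 1.33 and 1.90 CPM in the same order. The tissues did not overlap, and liver 67 had the lowest liver level, 26.4% of the mean of the other 4 livers. The hepatocyte marker sum of that library was 25.3% of the mean of the other 4. Mean levels were 158 ± 68.5 CPM in liver and 1.57 ± 0.350 in backfat (SD, n = 5), a log2 fold change of -6.65 (SE 0.42, adjusted p = 7.54e-08, edgeR).

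The low LIPC level in backfat was similar in all 5 libraries and rested on 74 to 130 read pairs per library. It amounted to 0.765% to 1.26% of the liver mean. The hepatocyte marker sum in backfat was 0.00347% to 0.00475% of its liver mean in 4 libraries and 0.138% in boar 69. In that library LIPC stood at 0.906%, within the range of the other 4, a range wider than the added share of hepatocyte markers there.

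**Figure D2:**
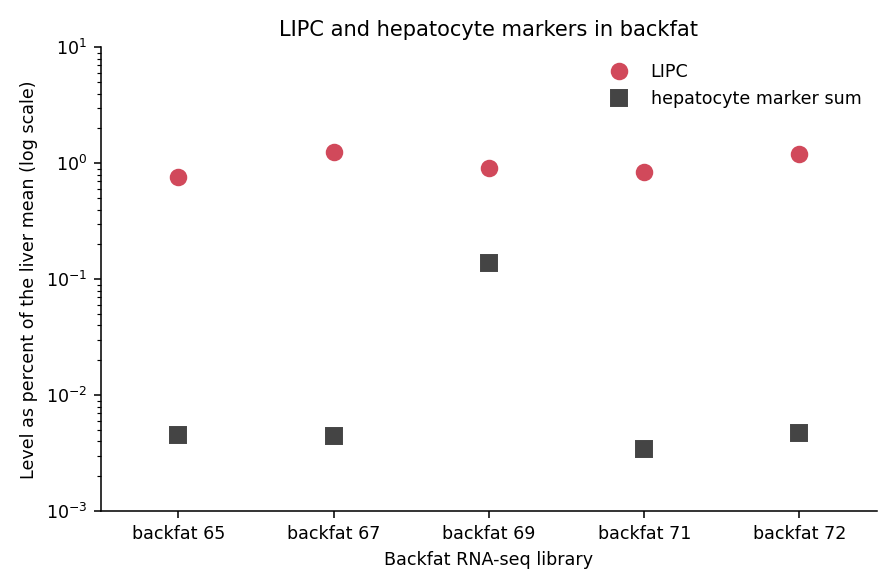
Level of LIPC (circles) and of the summed hepatocyte markers (squares) in each backfat library as a percentage of the liver mean, on a log axis. LIPC stays between 0.765% and 1.26%, while the marker sum is highest in boar 69 at 0.138% and at most 0.00475% elsewhere.

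LIPG (ENSSSCG00000004509), the lipase made by endothelial cells, spans chr1:99081940-99110671 on the plus strand with 10 exons. Its level in backfat was 6.55, 4.04, 13.8, 14.9 and 15.0 CPM in boars 65, 67, 69, 71 and 72. In liver it was 13.2, 33.5, 12.3, 4.99 and 14.2 CPM. The tissues overlapped, and boar 67 had both the lowest backfat and the highest liver level. The log2 fold change was -0.53 (SE 0.47, 95% interval -1.55 to 0.49, adjusted p = 0.361, edgeR). Without liver 67 it was -0.077, so that library supplied most of the difference in means.

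Levels per kilobase showed which lipase made up the transcripts of each tissue. LPL was 99.3% to 99.7% of the summed RPKM (CPM per kilobase of gene length) of the 3 lipases in backfat. LIPC was 95.5% to 98.7% of that sum in 4 livers. In liver 67 LIPC was 72.3% and LIPG 27.5%, while LIPG was 1.20% to 4.50% in the other livers. The summed level was 663 ± 119 RPKM in backfat and 75.2 ± 28.4 in liver (SD, n = 5), with no overlap between 570 at the lowest in backfat and 104 at the highest in liver. These figures use the gene lengths of the count table. With the RefSeq exon lengths, LPL was 99.6% to 99.8% in backfat and LIPC 75.0% to 98.8% in liver.

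**Figure D3:**
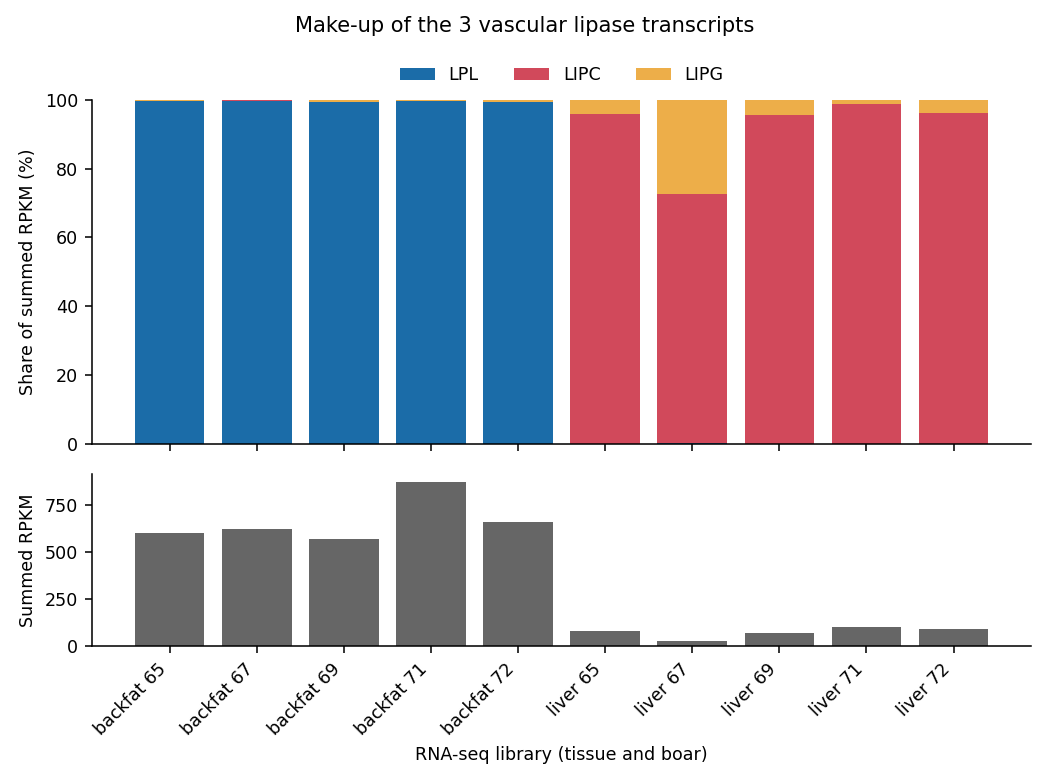
Share of LPL, LIPC and LIPG in the summed RPKM of the 3 lipases (upper bars, percent) and the summed RPKM itself (lower bars) in each library. Backfat is at least 99.3% LPL, 4 livers are at least 95.5% LIPC, and liver 67 is 72.3% LIPC and 27.5% LIPG.

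GPIHBP1 (ENSSSCG00000034689), the endothelial protein that binds LPL and moves it to the capillary lumen, spans chr4:1253401-1256921 on the minus strand with 4 exons. Its level in backfat was 188, 243, 142, 147 and 183 CPM in boars 65, 67, 69, 71 and 72. In liver it was 3.79, 40.2, 2.31, 4.61 and 3.47 CPM. Backfat lay above liver in every boar, and 1 liver, that of boar 67, stood well above the other 4. Mean levels were 181 ± 40.6 CPM in backfat and 10.9 ± 16.4 in liver (SD, n = 5), a log2 fold change of 4.06 (SE 0.77, adjusted p = 0.000698, edgeR). Without liver 67 the log2 fold change was 5.64 (adjusted p = 2.94e-08), and with the boar as a block it was 5.04 (adjusted p = 6.45e-05).

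Markers of capillary endothelium were also higher in backfat, while those of liver sinusoidal endothelium went in different directions. The summed capillary markers (5 of 6 with an identifier, among them PECAM1, CDH5 and KDR) were 744 to 1456 CPM in backfat and 169 to 221 in liver. The median log2 fold change of those 5 was 2.20, and 4 of them were called higher in backfat, beside 11.1% of all genes tested. Of 4 sinusoidal markers with an identifier, CLEC4G was called higher in liver (-10.02) and the other 3 were not called. Those 3 were STAB1 at -0.60, LYVE1 at 0.00014 and FCN2 at 1.36 (adjusted p = 0.00104, edgeR). FCN2 lay higher in every backfat library, and the median log2 fold change of the 4 was -0.30. In liver 67 the capillary sum was 221 CPM against 169 to 200 in the other livers, a far smaller gap than that of GPIHBP1. The sinusoidal sum there was 852 CPM against 475 to 679, and the adipocyte sum was within the range of the other livers. The part of the endothelial, muscle and blood markers in these values was not tested.

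LMF1 (ENSSSCG00000008009), a membrane protein of the endoplasmic reticulum required for active lipases, spans chr3:40841242-40929163 on the plus strand with 11 exons. Its level in backfat was 40.2, 45.7, 44.5, 50.8 and 48.1 CPM in boars 65, 67, 69, 71 and 72. In liver it was 92.8, 156, 93.0, 132 and 120 CPM. Every liver lay above every backfat library, and the backfat libraries were more alike than those of any other tested member, with a spread of 8.67% of their mean. The log2 fold change was -1.37 (SE 0.18, adjusted p = 3.01e-05, edgeR), which passed the p threshold, as did 55% of all genes tested, and not the fold threshold. With scaling by library size alone it was -0.63. In RefSeq 340 exonic bases of LMF1 overlap LOC106509720. The counting used Ensembl release 99 exons without regard to strand, and whether reads there were affected was not tested.

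ANGPTL4 (ENSSSCG00000013599), which is induced by fasting and inactivates LPL in adipose tissue, spans chr2:70905767-70912892 on the minus strand with 7 exons. Its level in backfat was 181, 425, 158, 128 and 201 CPM in boars 65, 67, 69, 71 and 72. In liver it was 104, 173, 77.5, 291 and 251 CPM. The tissues overlapped, and backfat 67 was more than 2 times the next backfat library. The log2 fold change was 0.28 (SE 0.41, 95% interval -0.60 to 1.17, adjusted p = 0.575, edgeR). Without backfat 67 it was -0.097, so its sign rested on that library.

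ANGPTL8 (ENSSSCG00000036965), induced by feeding and an inhibitor of LPL, spans chr2:69951556-69954223 on the plus strand with 4 exons. Its level in liver was 133, 23.5, 320, 69.4 and 69.3 CPM in boars 65, 67, 69, 71 and 72. In backfat the files held 0, 0, 19, 1 and 2 read pairs, or 0, 0, 0.320, 0.0180 and 0.0343 CPM. All livers lay above all backfat libraries, boar 69 was highest in both tissues, and the livers differed more among themselves than they did for LIPC. Mean levels were 123 ± 117 CPM in liver and 0.0744 ± 0.138 in backfat (SD, n = 5), a log2 fold change of -10.74 (SE 1.10, adjusted p = 4.42e-06, edgeR).

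Backfat 69 held 19 of the 22 ANGPTL8 read pairs of backfat, and without that library the log2 fold change was -13.12. Without liver 69, the liver with the highest level, it was -10.01. The ANGPTL8 level of backfat 69 was 0.259% of the liver mean, beside 0.138% for its hepatocyte marker sum, and the part of those markers in the value was not tested. ANGPTL8 in liver 67 was 15.9% of the mean of the other livers.

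Both inhibitors were set beside each other and beside LPL per kilobase, as levels. In backfat the ratio of ANGPTL4 to LPL was 0.0481 to 0.223 and was highest in boar 67. The ratio of GPIHBP1 to LPL in backfat was 0.233 to 0.539 with the lengths of the count table and 0.0919 to 0.213 with RefSeq exon lengths. It was again highest in boar 67 and lowest in boar 71. In liver the ratio of ANGPTL4 to ANGPTL8 ran from 0.0681 in boar 69 to 2.07 in boar 67 with the lengths of the count table, and from 0.252 to 7.67 with RefSeq exon lengths. The order of levels in backfat was LPL (660 RPKM), GPIHBP1 (248), ANGPTL4 (70.9), LMF1 (5.46), LIPG (2.72), LIPC (0.709) and ANGPTL8 (0.0859), with no overlap between neighbours. RefSeq lengths changed those of LPL to 1100, GPIHBP1 to 163, ANGPTL4 to 120 and LMF1 to 24.5 RPKM, and GPIHBP1 and ANGPTL4 then overlapped. In liver ANGPTL8 (142 RPKM), LIPC (71.2) and ANGPTL4 (58.3) overlapped one another. RefSeq lengths turned that order round, with ANGPTL4 at 98.8, LIPC at 78.1 and ANGPTL8 at 65.1 RPKM, which overlapped too.

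LCAT (ENSSSCG00000028350), the plasma enzyme that esterifies cholesterol on HDL, had 0 counts in all 10 libraries. With 3 counts as the limit that a count of 0 allows over the 5 libraries of a tissue, its level was at most 0.00916 CPM in backfat and 0.0156 in liver. LCAT was 1 of 452 genes with a symbol at 0 in every library. In RefSeq it lies at chr6:28550356-28553561 on the minus strand, with no exon shared with another gene. Whether its reads were lost in counting was not tested, so no absence of the transcript can be read from the value. No level is given for PLTP, which transfers phospholipid between lipoproteins.

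The wider pathway was described by lists of partner genes, of which 30 were tested and 18 called, beside 22.3% of all genes. Of the 18, 5 were higher in backfat and 13 higher in liver, beside 11.1% and 11.2% of all genes. Some partners, APOA4 and APOC3 among them, passed the filter on low counts through 1 tissue only, so counts and medians over the lists are a description. Among 13 genes of lipase folding, transport and cleavage, 3 were called higher in each tissue (11.1% of all genes in backfat, 11.2% in liver) and 7 were not called, with a median log2 fold change of -0.28 beside 0.00014 over all genes. SORL1, an intracellular sorting receptor that binds LPL, was higher in backfat by 4.03 on the log2 scale, and HSPG2, which carries heparan sulphate, by 2.81. PCSK6, a proprotein convertase, was -4.18, and SDC1, a heparan sulphate proteoglycan of hepatocytes, was -3.43. FURIN, a convertase that cleaves lipases and ANGPTL proteins, was -2.03 and fell below the fold threshold with the boar as a block (-1.96). SEL1L and LMF2, which were on the same list, were not called, with SEL1L at -0.996 (adjusted p = 0.0022) and LMF2 at 0.068 (adjusted p = 0.832, edgeR).

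**Figure D4:**
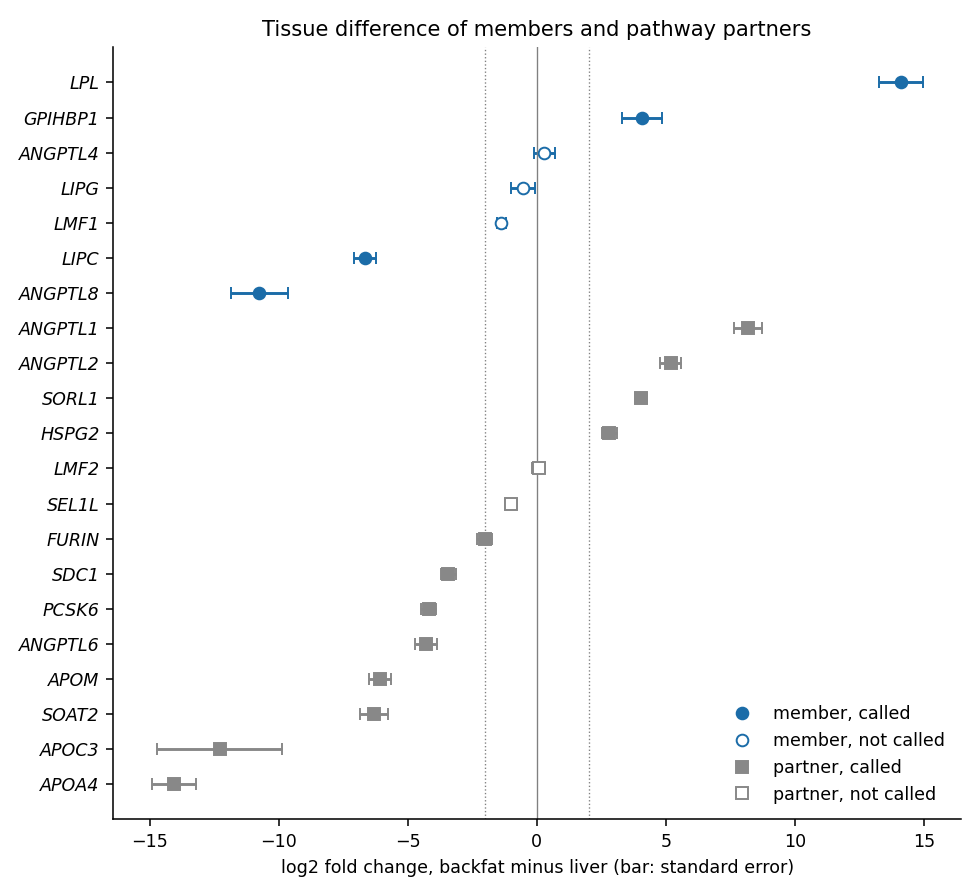
Log2 fold change (backfat minus liver) with its standard error for the 7 tested members (circles) and the named partner genes (squares), filled where called. Dotted lines mark the fold threshold of 2 in either direction, and values run from 14.09 for LPL to -14.06 for APOA4.

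Of 7 apolipoproteins listed, 4 were tested, APOA1, APOA4, APOC3 and APOE. All 4 were called higher in liver, beside 11.2% of all genes. In backfat APOA1 and APOE still had means of 246 and 3434 CPM, beside 14580 and 41590 in liver. The median log2 fold change of the 4 was -9.09, beside 0.00014 over all genes. APOA4 and APOC3 passed the filter on low counts through liver only, so this count and median are a description. APOA4 (-14.06) and APOC3 (-12.28), an inhibitor of LPL, changed most. APOC1, APOC2 and APOA5 had no identifier and no value is given. Of the other angiopoietin-like genes, ANGPTL1 (8.16) and ANGPTL2 (5.18) were called higher in backfat, and ANGPTL6 (-4.29) and ANGPTL7 (-2.53) higher in liver. Without backfat 69, the library with more hepatocyte markers, the log2 fold change was -19.50 for APOC3. APOA4 had 1 read pair in all of backfat, in that library, so the size of its fitted fold is not a measured one. ANGPTL5 was at 0 in all 5 livers and was too low to test. By the limit that 3 counts set, its backfat mean of 0.342 CPM was at least 22.0-fold higher. Backfat ran from 0.0226 CPM in boar 65 to 0.875 in boar 69, beside a liver limit of 0.0156. The fold therefore leaned on backfat 69, and it was not computed without that library.

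Of the remaining genes of the pancreatic lipase family only PLA1A, a phosphatidylserine-specific phospholipase, was high enough to test, at -1.40 (adjusted p = 0.00391, edgeR), short of the fold threshold. Among 7 tested genes of HDL remodelling, 3 were called higher in liver, as were 11.2% of all genes, and 4 were not called. SOAT2, which esterifies cholesterol in hepatocytes, was -6.31 and APOM, an HDL apolipoprotein, was -6.06. Hepatocyte markers moved with these liver-high genes, and their part was not tested.

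The genes whose pattern lay nearest to LPL, LIPC and GPIHBP1 were found from the root mean square difference of centred log2 CPM over the 10 libraries. A prior count of 2 was added before the log, which narrows the tissue contrast of genes near 0. For LPL they were ADIPOQ (1.39), TRARG1 (1.60) and MYOC (1.79). Those for LIPC were SHH (0.297), TP63 (0.337) and HAAO (0.384), and SHH and TP63 had liver means of only 5.66 and 6.22 CPM. In backfat SHH and TP63 were near 0, at 0.00343 and 0.0303 CPM. Their fitted log2 fold changes were -10.01 and -7.66, beside -6.65 for LIPC, so their nearness rests in part on the prior count. GPIHBP1 was nearest to FHL5 (0.475), OGN (0.487) and APOLD1 (0.511). The nearest genes to LPL were farther from it than those of the other members, LPL having the widest tissue difference of the 3.

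The calls of the members were compared across normalizations, tests, filters, the boar block and leaving out each library. LPL, LIPC, GPIHBP1 and ANGPTL8 were called in every such fit in which they were tested, and LIPG, LMF1 and ANGPTL4 in none. Leaving out both libraries that stood apart gave 14.38 for LPL, -6.85 for LIPC, 5.75 for GPIHBP1 and -13.41 for ANGPTL8.

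**Figure D5:**
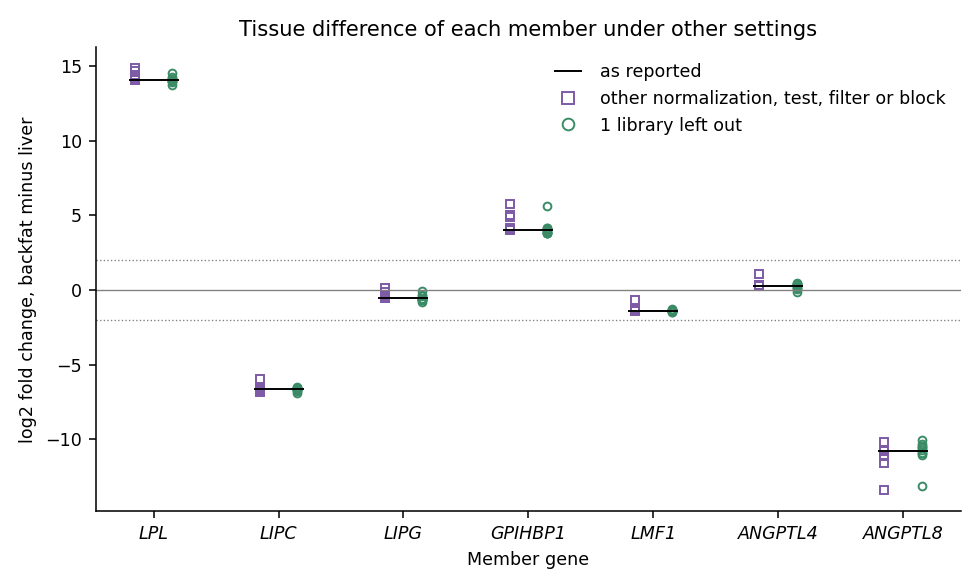
Log2 fold change (backfat minus liver) of each tested member as reported (line), under another normalization, test, filter or block, or without backfat 69 and liver 67 (squares), and with 1 library left out (circles). The 4 called members stay beyond the dotted lines at 2 in either direction, and GPIHBP1 and ANGPTL8 move most.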

How the data were processed

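RNA-seq counts were used. Per the file headers and methods, the authors used HISAT2 to align paired-end reads to Sscrofa11.1, and featureCounts 2.0.1 then gave read pairs per gene over Ensembl release 99 exons without regard to strand. The deposited counts are raw. Bisulfite sequencing summaries carry no positions and were not used here. Symbols came from an Ensembl name table (15029 of 31907 genes).

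Genes were filtered (filterByExpr) and tested with edgeR 4.0.16 (R 4.3.3, TMM, quasi-likelihood, tissue only), with Benjamini-Hochberg adjustment over 16275 genes. DESeq2 1.42.0, limma 3.58.1 (voom) and other settings were alternatives. On simulated data edgeR called 184 of 200 genes changed by a log2 fold change of 3 and 1 unchanged gene. The simulation changed only 200 of 16275 genes, while 22.3% were called in these data. It therefore does not give the rate of false calls under so wide a tissue difference. CPM and RPKM use TMM-scaled library sizes. TMM factors were 1.18 to 1.44 in backfat and 0.649 to 0.916 in liver.

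Boar numbers in the column names pair the tissues, since both samples come from 1 animal. The correlation of paired deviations was 0.0490 to 0.238. It was lowest in boar 69, whose backfat correlated best with the liver of boar 72. Backfat of every other boar correlated best with its own liver. The boars are separate animals, and no 2 libraries were alike within sampling noise. Limits from 0 counts cover counting error only.

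Members and lists were chosen with earlier results of these data known. The named genes were all members, the 2 largest called changes per direction and partner list, APOC2, APOC3, APOA5, SEL1L, FURIN and LMF2, and the 3 nearest patterns of LPL, LIPC and GPIHBP1. Some results of this rule are not reported here.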

Additional observations from a re-analysis of the deposited data

Results flagged for a closer look

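In 9 of 40 groups of 5 libraries, 1 library was separated from the rest by a gap that exceeded Dixon's 95% critical value of 0.71 of the range. Chance alone gives about 1 in 20 such groups, and several of the 9 are the same library.

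Liver of boar 67 was set apart in 6 of them. GPIHBP1 was at 40.2 CPM there against 2.31 to 4.61 in the other livers. The hepatocyte marker sum was 19023 CPM against 68156 to 83834, the skeletal muscle marker sum 135 CPM against 0.379 to 1.05, and the red cell marker sum 1822 CPM against 72.7 to 383. LIPC made up 72.3% of the summed RPKM of the 3 lipases against 95.5% to 98.7%, and LIPG 27.5% against 1.20% to 4.50%.

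Backfat of boar 69 was set apart for the hepatocyte marker sum, 88.2 CPM against 2.22 to 3.04, and for ANGPTL8, 0.320 CPM against 0 to 0.0343. Backfat of boar 67 was set apart for ANGPTL4, 425 CPM against 128 to 201.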

How the results depend on the processing

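The 4 member calls and the 3 members not called were the same under every alternative that tested all 7. Requiring at least 10 counts in every library tested 5 members and called 2, LIPC and GPIHBP1, because LPL and ANGPTL8 were then dropped, and it called 1852 of 13026 genes. Testing against the fold threshold itself (glmTreat) called 2413 genes and all 4 members. With the boar as a replicate block, 3670 genes were called (1913 higher in backfat, 1757 in liver), beside 3633 without it (1814 and 1819). The block called the same number of members (4) and 17 partners in place of 18, and among named genes it changed only the call of FURIN. Scaling by library size alone shifted the median of all genes by 0.71 and split the calls 2874 to 1340. LIPG was then 0.15 and ANGPTL4 1.10 (adjusted p = 0.0236, edgeR), still below the fold threshold. ANGPTL4 was -0.097 without backfat 67, and LMF2 was -0.045 without liver 65 and -0.059 without liver 69. FURIN lost its call in 9 alternatives. Leaving out 1 library gave 13.73 to 14.51 for LPL, -6.91 to -6.51 for LIPC, 3.79 to 5.64 for GPIHBP1, -0.097 to 0.50 for ANGPTL4 and -13.12 to -10.01 for ANGPTL8. Leaving out backfat 69 and liver 67 together was chosen after seeing the data. LPL in liver and ANGPTL8 in backfat rest on at most 19 read pairs per library, which limits the precision of their folds.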
